A study of Homo sapiens with 12 samples.

Results

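The genes described here are 53 members of the DNA replication machinery, the set of proteins that copies the genome in S phase, together with the enzymes that supply its nucleotides, the factors that rebuild chromatin on the new strands and regulators of S-phase entry. They were listed by gene symbol, with earlier results of these data known. All 53 were found among the 27968 gene symbols of the tables, and all 53 passed the filter on low counts, which left 15304 genes for testing. The levels come from RNA-seq of a pair of human cancer lines, A549 from lung and MDA-MB-231 from breast. Each line was grown flat (2D) and embedded in Matrigel, a basement membrane extract (3D), and the study set these forms of culture against each other. This makes 4 groups with 3 libraries each. No group was treated, and the medium was DMEM with 10% FBS throughout. Flat cultures were harvested near 80% confluence and Matrigel cultures on day 4, so culture form and the state of growth at harvest cannot be told apart. Nothing in the labels tells if libraries of 1 group are separate cultures. The p-values therefore measure the spread between these samples alone, and that spread may be technical.

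Replication starts from origins that are licensed before S phase: the origin recognition complex, CDC6 and CDT1 load the ring-shaped MCM helicase onto DNA, and geminin holds CDT1 back so that an origin fires once. At the start of S phase CDC45 and the GINS complex join the MCM ring to form the active helicase, primase and polymerase alpha lay down primers, and polymerases delta and epsilon extend them on a sliding clamp, PCNA. Most of these genes are known targets of E2F transcription factors, which are held by pocket proteins in resting cells and released when cells commit to division, so their mRNAs are widely used as a readout of proliferation.

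Promoter sequence is shown first, because E2F sites are the best-known shared feature of these genes. The 250 bases before each start site in RefSeq (build GRCh38.p14) were searched on both strands for 4 E2F words, TTTCCCGC, TTTGGCGC, TTTCGCGC and TTTGCCGC, whose matches can overlap. Of the 46 members with an entry, 16 held at least 1 word (34.8%), against 3.4% of the 27305 genes in the table. Here and for the words below, this background also holds genes that were not tested for expression. It was not matched to the members for base composition. The 7 members with no entry were MCM4, MCM5, GINS4, DSCC1, POLD3, RPA2 and RPA3, and 10 members had more than 1 start site. Stretches of 80 bases are printed below for the members that both had the smallest p-values of their role in a line and held a word, and for MCM6, which held 4 words and was chosen after its sequence was seen. They run 5′ to 3′ on the gene's strand, with the words in capitals, where GCGGGAAA, GCGGCAAA and GCGCGAAA are the words read on the other strand. A match of letters is a description and not a binding site.
E2F1 (chr20:33686386-33686465, minus strand): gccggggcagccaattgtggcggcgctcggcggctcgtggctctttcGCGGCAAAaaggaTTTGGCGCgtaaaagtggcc
GMNN (chr6:24775297-24775376, plus strand): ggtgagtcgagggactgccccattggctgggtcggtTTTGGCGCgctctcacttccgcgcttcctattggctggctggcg
MCM6 (chr2:135876519-135876598, minus strand): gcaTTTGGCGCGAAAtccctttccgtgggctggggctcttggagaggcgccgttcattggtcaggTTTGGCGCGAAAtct
MCM7 (chr7:100101398-100101477, minus strand): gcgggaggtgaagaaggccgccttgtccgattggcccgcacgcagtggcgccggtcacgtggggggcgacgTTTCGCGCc
RFC3 (chr13:33818058-33818137, plus strand): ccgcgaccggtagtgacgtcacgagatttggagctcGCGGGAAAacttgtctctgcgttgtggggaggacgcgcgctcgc
UHRF1 (chr19:4909421-4909500, plus strand): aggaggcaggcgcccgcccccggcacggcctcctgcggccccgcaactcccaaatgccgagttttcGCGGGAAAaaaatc

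In MCM6 the word TTTGGCGC runs into the reverse complement of TTTCGCGC in 2 places, as TTTGGCGCGAAA. CCAAT, the word bound by NF-Y, was present upstream of 60.9% of the 46 members and of 37.0% of all genes. The words TTTGAA and TTCGAA, which are the letters of the CHR element of late cell-cycle genes, were present upstream of 4.35% and 17.2%. For the 16 members with an E2F word the median log2 fold change in 3D was -0.63 in A549 and -0.19 in MDA-MB-231, against -0.97 and -0.20 for the 30 matched members without one.

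Total counts ranged from 5609327 to 28171901 per library. Libraries from 3D differed from those of 2D in more than these genes. For A549, fragments averaged 180.6 ± 5.8 bases in 2D and 137.7 ± 3.7 bases in 3D (SD, n = 3). For MDA-MB-231 they averaged 213.4 ± 4.5 and 184.8 ± 3.4 bases. Ribosomal RNA genes held 0.332% ± 0.0663 of counts in flat A549, and 16.5%, 4.65% and 3.53% in the 3 Matrigel libraries of that line. Replicate 1 thus stood apart, and small RNA genes took 22.8% of its counts against 12.1% and 9.66%. In MDA-MB-231 the ribosomal share was 1.15% ± 0.0273 in 2D and 4.84% ± 1.43 in 3D. Replicates scattered most in A549 3D, with a biological coefficient of variation of 0.180 against 0.0377 to 0.0554 elsewhere. What these differences contribute to the results below was not tested, other than by the alternatives named there. The lines carried most of their own markers. AKR1B10 and ALDH1A1 of A549 were near 0 in MDA-MB-231, and VIM and CD44 were higher in MDA-MB-231. EPCAM, however, was low in A549 (4.03 CPM in 2D) and SPARC was at 0.404 CPM in MDA-MB-231. Of 8 lung epithelial markers, 7 were higher and 1 lower in A549 in 2D (8 and 0 in 3D). Of 8 mesenchymal breast markers, 2 were higher and 6 lower there (1 and 7 in 3D). Over all genes, 42.8% were higher and 38.8% lower in 2D (43.9% and 39.2% in 3D). Of the 7 leukocyte markers, CD3E was at 0 in every library and PTPRC at no more than 0.564 CPM, while CD14 rose in 3D to 20.4 CPM in A549 and 17 CPM in MDA-MB-231 and CD68 rose to 19.5 and 241 CPM. The summed list ranged over 9.34 to 11 CPM in flat A549 and 33.2 to 54 CPM in Matrigel. For MDA-MB-231 it ranged over 94.7 to 110.4 CPM and 241 to 271 CPM, and its part in the results was not tested.

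In A549 the replication genes fell together in Matrigel. Of the 53 members, 48 were lower in 3D, 0 were higher and 5 did not pass (POLD2, RPA1, RPA2, RPA3 and E2F2). Over all genes tested, 31.5% were lower and 34.1% higher. The median log2 fold change of the members was -0.93, that of all genes was 0.03, and single members ranged from -2.16 for UHRF1 to 0.17 for RPA3. A fall of at least 2-fold was called for 21 members, against 9.45% of all genes, and in 47 members every 3D library lay below every 2D library, against 32.1% of all genes. The summed level of the 53 genes went from 5581 ± 96 CPM in 2D to 3090 ± 391 CPM in 3D (SD, n = 3), where CPM is the count scaled to library size after TMM normalisation. In bulk RNA, fewer cells in S phase and less RNA per cell cannot be told apart.

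In MDA-MB-231 the same genes split. There 24 members were lower in 3D, 12 were higher and 17 did not pass, while 34.2% of all genes were lower and 33.4% higher. The share of members that rose was below the background and the share that fell was above it. The median log2 fold change was -0.19 against 0 over all genes, with a range from -1.56 for DSCC1 to 1.21 for TK1. A fall of at least 2-fold was called for 4 members and a rise of that size for 1, against 12.7% and 11% of all genes. Every 3D library lay below every 2D library in 28 members and above in 15, against 38.1% and 37.2% of all genes. The summed level went from 6248 ± 107 to 5666 ± 30 CPM (SD, n = 3).

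**Figure D1:**
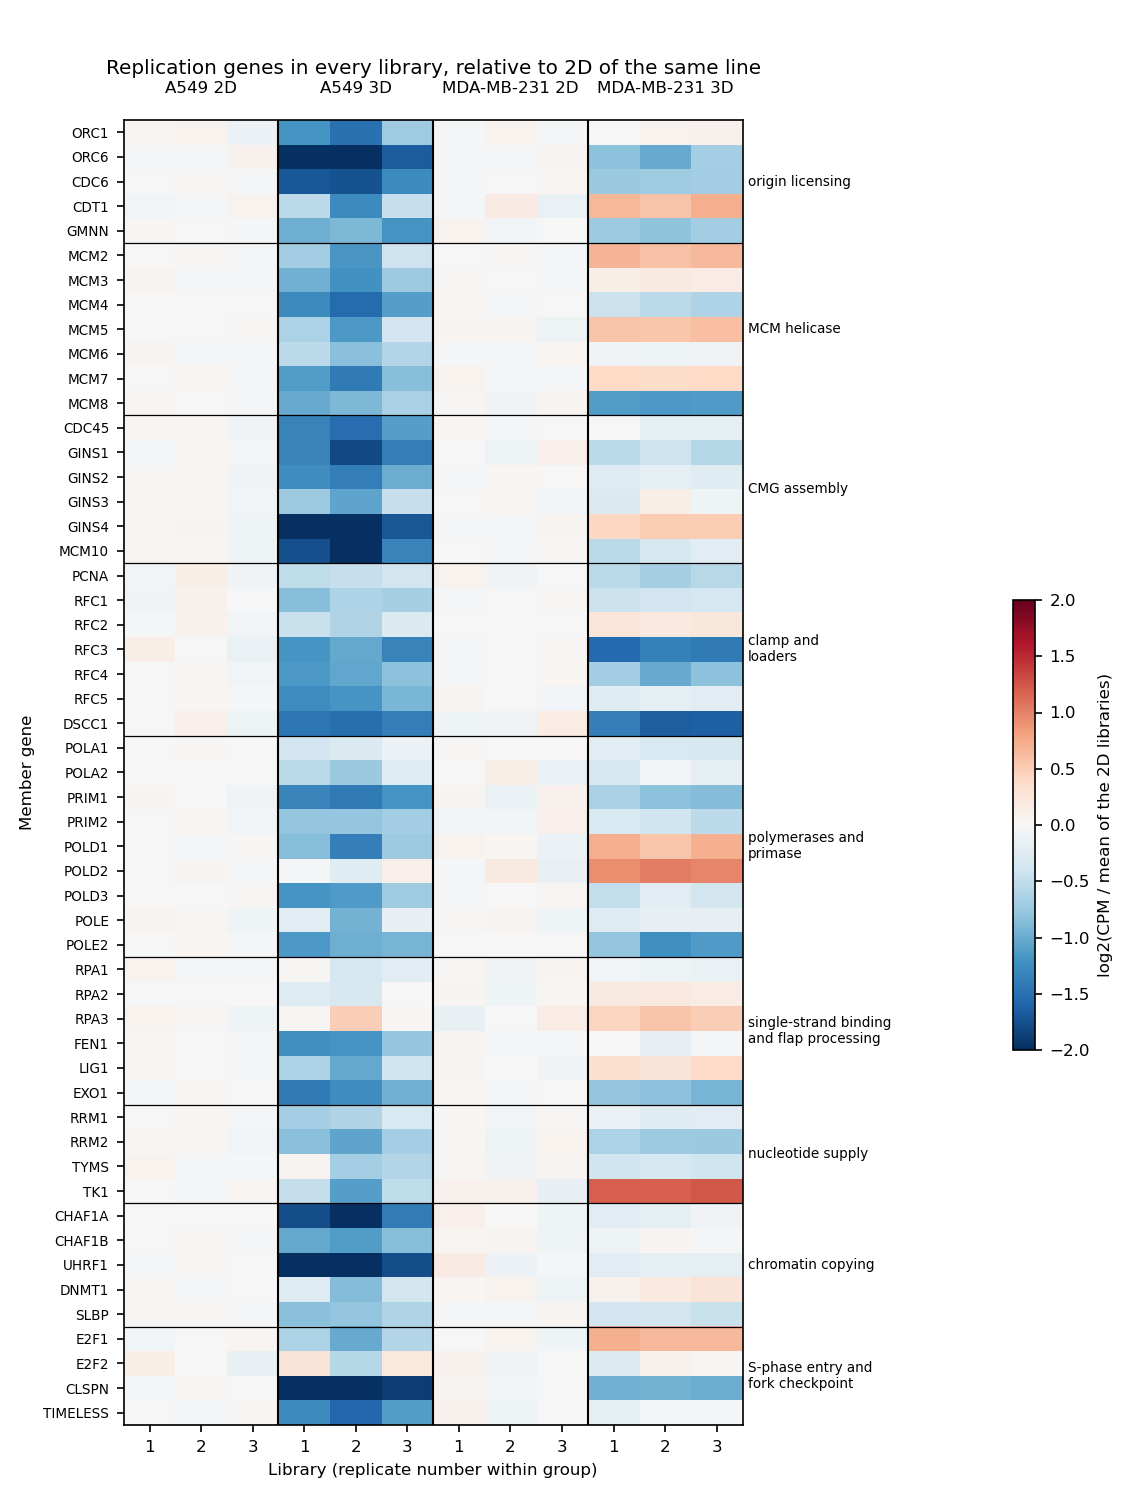
Level of each of the 53 genes (rows, by role) in each of the 12 libraries (columns) as log2 of its CPM over the mean of the 2D libraries of the same line, with the colour scale ending at -2 and 2. The 3 A549 3D columns are blue in nearly every row, with 48 genes called lower, while the MDA-MB-231 3D columns hold both blue (24 called lower) and red (12 called higher, 2 on the TPM scale).

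The direction in MDA-MB-231 moved with the base composition of the transcripts. Over the 53 members, the Spearman correlation between transcript GC content and the log2 fold change was 0.79 in MDA-MB-231 and 0.27 in A549, and over 15066 genes it was 0.61 and 0.12. These are correlations across genes that share the same libraries, and genes are not independent replicates. The 12 members that rose had a median GC content of 58.7% (45.9% to 64.9%), the 24 that fell 43.4% (38.3% to 50.5%) and the 17 that did not pass 52.1%, against 49.3% over all genes. When the trends of counts with gene length and GC content were taken out of each library, an alternative chosen after the data were seen, the correlation over the members was 0.14. In that fit 22 members were lower, 15 of them also lower before, and 11 were higher, 5 of them also higher before (GINS4, MCM2, POLD2, RPA3 and TK1). The background was then 25% lower and 32.1% higher. RFC2 turned from higher to lower, and RFC1, POLA1 and PRIM2 turned from lower to higher. In A549 the same step left 49 lower and 0 higher, of which 47 were lower before, against 33.2% and 35.3% of all genes. For MDA-MB-231, member values from this fit are given below beside the main ones, and are called trend-removed.

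**Figure D2:**
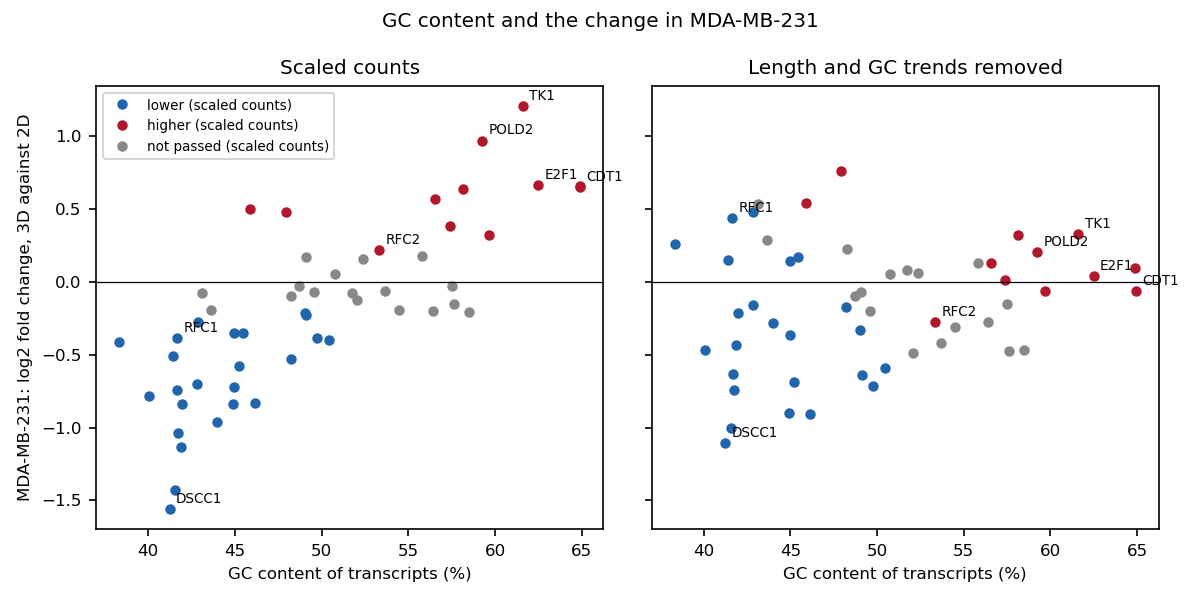
Log2 fold change of the 53 genes in MDA-MB-231 (3D against 2D, vertical axis) against the GC content of their transcripts in percent (horizontal axis), from scaled counts on the left and after removal of the length and GC trends on the right, with colours by the call from scaled counts. The rising slope on the left (Spearman 0.79) is nearly gone on the right (0.14), where RFC1 and RFC2 lie on the other side of 0.

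The unit also mattered for the split. On log2(TPM + 1), where a level is scaled by gene length and by all RNA of the library, the median of all genes moved to -0.38 in A549 and -0.25 in MDA-MB-231. All 53 members were then lower in A549, including RPA3 and E2F2, whose sign turned, and 36 were lower and 2 higher (POLD2 and TK1) in MDA-MB-231, where MCM7, RFC2 and LIG1 turned below 0. Relative to that shift of all genes, the member median of -1.41 in A549 and -0.58 in MDA-MB-231 on this scale remained lower. The share of all genes called on the TPM scales is not given here. Counts of members on those scales, here and below, therefore cannot be set against a background and include the shift of all genes. Over 25 alternatives, 45 falls in A549 were called in all of them. For MDA-MB-231 13 falls (ORC6, CDC6, GMNN, MCM8, PCNA, RFC3, RFC4, DSCC1, PRIM1, POLE2, TYMS, SLBP and CLSPN) and 2 rises (POLD2 and TK1) were called in all 25. The 25 include both TPM scales, where the shift of all genes lowers the values. Falls and rises were thus not held to the same measure. The share of all genes called in all 25 is not given here.

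Origin licensing genes fell in A549, 5 of 5, with a median log2 fold change of -1.04. ORC6, the smallest subunit of the origin recognition complex, was at 49, 49.1 and 53.5 CPM in 2D and 11.8, 11.9 and 15.9 CPM in 3D (log2 fold change -1.88 ± 0.12, adjusted p = 1.93e-09). CDC6, the ATPase that helps load the helicase, was at 163, 165 and 160.1 CPM in 2D and 50.0, 48.8 and 67 CPM in 3D (log2 fold change -1.53 ± 0.10, adjusted p = 3.06e-09). The cultures were separated in every library for both genes, by 3.67-fold and 2.89-fold in the fit. In MDA-MB-231 ORC6 was at 33.7, 33.6 and 35.4 CPM in 2D and 19.5, 16.9 and 21.4 CPM in 3D (log2 fold change -0.83 ± 0.11, adjusted p = 5.74e-06), and CDC6 at 161, 163 and 169 CPM in 2D and 98, 99.8 and 101 CPM in 3D (log2 fold change -0.72 ± 0.095, adjusted p = 6.38e-06). Both fell in that line too, with trend-removed values of -0.91 and -0.37. ORC1, the ATP-binding subunit of the same complex, fell in A549 (log2 fold change -1.02 ± 0.13, adjusted p = 6.49e-06) but did not pass in MDA-MB-231, where its levels of 38.5, 41.4 and 38.3 CPM in 2D and 39.4, 41.6 and 42 CPM in 3D overlapped (log2 fold change 0.058, adjusted p = 0.712, 0.054 trend-removed).

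CDT1, the loader, and GMNN, which encodes its inhibitor geminin, moved apart in MDA-MB-231. GMNN was at 125, 115 and 119 CPM in 2D and 72.2, 68.5 and 74 CPM in 3D (log2 fold change -0.74 ± 0.078, adjusted p = 6.14e-07), a fall. CDT1 was at 19.2, 21.9 and 18 CPM in 2D and 31.2, 29.3 and 32.5 CPM in 3D (log2 fold change 0.65 ± 0.13, adjusted p = 2.68e-04), a rise. The GC contents lie far apart, at 41.7% for GMNN and 64.9% for CDT1. Trend-removed values were -0.63 for GMNN (adjusted p = 2.54e-07) and -0.065 for CDT1 (adjusted p = 0.493). The fall of GMNN passed in both fits and the rise of CDT1 in the main one. In A549 both genes fell. GMNN was at 47.2, 46.8 and 45.3 CPM in 2D and 23.7, 25 and 20.3 CPM in 3D (log2 fold change -1.04 ± 0.089, adjusted p = 5.79e-08), and CDT1 was at 22.8, 23.3 and 24.7 CPM in 2D and 16.4, 9.77 and 17.2 CPM in 3D (log2 fold change -0.63 ± 0.14, adjusted p = 9.72e-04).

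All 7 MCM genes fell in A549, with a median of -0.83. MCM4 and MCM7, subunits of the hexameric helicase, had the smallest p-values. MCM4 was at 373, 369.9 and 372 CPM in 2D and 154, 128 and 172 CPM in 3D (log2 fold change -1.29 ± 0.094, adjusted p = 1.06e-08), and MCM7 was at 424, 434 and 415 CPM in 2D and 197, 159 and 234 CPM in 3D (log2 fold change -1.10 ± 0.10, adjusted p = 2.03e-07). The 3D libraries of each gene lay below its 2D libraries and spread more widely. The other 5 had log2 fold changes of -0.94 (MCM3), -0.83 (MCM8), -0.70 (MCM2), -0.66 (MCM5) and -0.64 (MCM6), all called lower.

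In MDA-MB-231 the same 7 genes went different ways, 3 higher, 2 lower and 2 not passed. MCM2 was at 87.7, 89.8 and 87 CPM in 2D and 141, 132 and 139 CPM in 3D (log2 fold change 0.64 ± 0.12, adjusted p = 2.71e-04). MCM5 rose from 74.6, 75.1 and 66.9 CPM to 107, 105 and 109 CPM (log2 fold change 0.57 ± 0.13). MCM7 rose from 237 ± 9.18 to 310.3 ± 4.34 CPM (SD, n = 3; 0.39 ± 0.10), although it was at -0.031 on log2(TPM + 1). The libraries of all 3 genes were separated by culture. Trend-removed values were 0.32 for MCM2 (adjusted p = 0.00348), 0.13 for MCM5 and 0.014 for MCM7, and only that of MCM2 passed. MCM4 fell, from 273, 257 and 263 CPM to 196, 182 and 173 CPM (log2 fold change -0.53 ± 0.092, adjusted p = 1.02e-04), with a trend-removed value of -0.17 that did not pass (adjusted p = 0.104). MCM3 was at 369.8, 362 and 356 CPM in 2D and 398, 412 and 404 CPM in 3D, and MCM6 at 109, 109 and 114 CPM in 2D and 105, 104 and 105 CPM in 3D. Neither passed, at log2 fold changes of 0.16 (adjusted p = 0.138) and -0.073 (adjusted p = 0.435), although their libraries were separated by culture, upwards for MCM3 and downwards for MCM6. The trend-removed value of MCM3 was 0.065, which did not pass, and that of MCM6 was 0.54 (adjusted p = 8.27e-05). MCM8, a relative outside the ring that acts in recombination repair, showed the strongest fall of the 7: it was at 85.6, 81 and 87.5 CPM in 2D and 39, 38.1 and 38.6 CPM in 3D (log2 fold change -1.14 ± 0.087, adjusted p = 2.26e-08), with -0.43 trend-removed.

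The genes that turn the loaded ring into an active helicase had a median of -1.36 in A549, the lowest of the 9 role medians, and 6 of 6 fell. GINS4, a subunit of the 4-part GINS complex, was at 69.5, 71.2 and 64.7 CPM in 2D and 17, 16.4 and 20.9 CPM in 3D (log2 fold change -1.87 ± 0.095, adjusted p = 1.76e-10), a 3.67-fold difference. GINS1 was at 90.2, 94.8 and 90.7 CPM in 2D and 36.7, 26.4 and 35.3 CPM in 3D (log2 fold change -1.46 ± 0.10, adjusted p = 6.81e-09). MCM10, which helps the helicase to start, fell with a log2 fold change of -1.62 ± 0.13, CDC45 with -1.27 ± 0.10, GINS2 with -1.17 ± 0.092 and GINS3 with -0.67 ± 0.12. The 4 GINS subunits, which form a complex of equal parts, thus spanned -0.67 to -1.87.

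In MDA-MB-231 GINS4 went the other way. It was at 55.7, 56.3 and 58.9 CPM in 2D and 75.8, 81 and 81.1 CPM in 3D (log2 fold change 0.48 ± 0.083, adjusted p = 1.05e-04). Every 3D library lay above every 2D library. Trend-removed, the rise was 0.76 (adjusted p = 1.00e-07), and its transcripts have a GC content of 47.9%. On log2(TPM + 1), which includes the shift of all genes, GINS4 stood at 0.060 and did not pass (limma, adjusted p = 0.634). GINS1 fell from 46.3, 43.2 and 49.4 CPM to 32, 34.5 and 31.1 CPM (log2 fold change -0.51 ± 0.099, adjusted p = 2.93e-04) and MCM10 and GINS2 fell by 0.35 and 0.23 on the log2 scale. Trend-removed, GINS1 (0.15) and MCM10 (0.17) no longer passed and GINS2 stood at -0.64. CDC45 was at 48.7, 46.1 and 47 CPM in 2D and 47.5, 41.1 and 41.6 CPM in 3D and GINS3 at 23.8, 24.6 and 23 CPM in 2D and 19.5, 25.9 and 22.4 CPM in 3D, and neither passed (adjusted p = 0.238 and 0.657), while trend-removed CDC45 was called lower (-0.49) and GINS3 was not (-0.20). The call for GINS2 was lost without any 1 of the 6 MDA-MB-231 libraries or without A549 2D replicate 1 or 2 (adjusted p = 0.0518 to 0.0971), and that for MCM10 without MDA-MB-231 2D replicate 3 or 3D replicate 1 (adjusted p = 0.0503 and 0.0971).

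Clamp and clamp-loader genes fell in both lines, 7 of 7 in A549 (median -0.98) and 6 of 7 in MDA-MB-231 (median -0.58). DSCC1, a part of the alternative loader that acts in sister chromatid cohesion, was at 26.8, 28.5 and 24.8 CPM in 2D and 9.78, 9.38 and 10.2 CPM in 3D in A549 (log2 fold change -1.43 ± 0.11, adjusted p = 2.48e-08) and at 38.6, 38.9 and 45.1 CPM in 2D and 15.8, 13 and 13.1 CPM in 3D in MDA-MB-231 (log2 fold change -1.56 ± 0.10, adjusted p = 4.12e-09). RFC3, a small subunit of the clamp loader, was at 72.6, 65.7 and 60.0 CPM in 2D and 29.2, 32.4 and 26.1 CPM in 3D in A549 (log2 fold change -1.20 ± 0.098, adjusted p = 3.78e-08) and at 53.5, 55.1 and 55.9 CPM in 2D and 18.7, 21.4 and 20.6 CPM in 3D in MDA-MB-231 (log2 fold change -1.43 ± 0.096, adjusted p = 6.76e-09). Both genes were separated by culture in all libraries of both lines, and trend-removed values in MDA-MB-231 were -1.11 and -1.0. RFC5, a further small subunit, was at 82.2, 84.4 and 80.4 CPM in 2D and 34.6, 36.5 and 43.9 CPM in 3D in A549 (log2 fold change -1.08 ± 0.088, adjusted p = 3.69e-08).

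PCNA, the clamp itself, is the ring on which the polymerases slide. It was at 378, 427 and 373 CPM in 2D and 274, 284 and 305 CPM in 3D in A549 (log2 fold change -0.45 ± 0.079, adjusted p = 1.30e-04) and at 338, 305 and 322 CPM in 2D and 222, 204 and 219.9 CPM in 3D in MDA-MB-231 (log2 fold change -0.58 ± 0.079, adjusted p = 8.34e-06, -0.69 trend-removed). RFC4 fell in both lines (-0.98 and -0.84), as did RFC1, the large subunit of the loader (-0.71 and -0.38), and RFC5 (-0.21 in MDA-MB-231). Trend-removed values were -0.90 for RFC4 and -0.33 for RFC5. RFC2 fell in A549 (-0.42, adjusted p = 4.08e-04) and was the 1 clamp-loader gene that rose in MDA-MB-231, from 71.9, 72.3 and 72.8 CPM to 85.7, 82.4 and 84.4 CPM (log2 fold change 0.22 ± 0.079, adjusted p = 0.023). Trend-removed, the signs of RFC1 and RFC2 in MDA-MB-231 changed to 0.44 and -0.28, and both values passed. In MDA-MB-231 the call for RFC2 was lost without any 1 of 5 libraries, the exception being 3D replicate 2 (adjusted p = 0.0539 to 0.0663), and on log2(TPM + 1) its value was -0.21. The call for RFC5 was lost without any 1 of 5 libraries of that line, the exception being 2D replicate 3 (adjusted p = 0.0608 to 0.116).

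Of the 9 polymerase and primase genes 8 fell in A549 (median -0.74). PRIM1, the catalytic subunit of primase, was at 50.4, 48.6 and 46 CPM in 2D and 19.4, 18.2 and 21.1 CPM in 3D (log2 fold change -1.28 ± 0.096, adjusted p = 1.49e-08), and POLD3, an accessory subunit of polymerase delta, was at 52.3, 52.7 and 53.6 CPM in 2D and 23.3, 24 and 32.2 CPM in 3D (log2 fold change -0.95 ± 0.11, adjusted p = 1.98e-06). The subunits of 1 enzyme fell by different amounts. POLE2 fell with a log2 fold change of -0.99 and POLE, the catalytic subunit of polymerase epsilon, with -0.37, POLD1 with -0.93, PRIM2 with -0.74, POLA2 with -0.46 and POLA1, the catalytic subunit of polymerase alpha, with -0.26. POLD2, the partner of POLD1, did not pass: it was at 107, 112 and 106 CPM in 2D and 106, 91.2 and 116 CPM in 3D, and the cultures overlapped (log2 fold change -0.046, adjusted p = 0.7). The call for POLE was lost without A549 2D replicate 1 or 2 (adjusted p = 0.069 and 0.0584) and with the 6 A549 libraries fitted alone (adjusted p = 0.0668). With the trends removed the call for POLA1 was lost (adjusted p = 0.424) and POLD2 was called lower (-0.22, adjusted p = 0.00956).

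In MDA-MB-231 5 of the 9 fell and 2 rose. POLE2 was at 62.2, 61.6 and 62.3 CPM in 2D and 36.4, 26.6 and 28.3 CPM in 3D (log2 fold change -1.04 ± 0.10, adjusted p = 2.44e-07, -0.75 trend-removed), and PRIM1 fell with a log2 fold change of -0.78 ± 0.090 (-0.47 trend-removed). POLD2 was at 121, 140.4 and 112 CPM in 2D and 235, 252 and 245 CPM in 3D (log2 fold change 0.97 ± 0.095, adjusted p = 3.01e-07), and its partner POLD1 at 40.3, 39.4 and 35.3 CPM in 2D and 63.5, 56.3 and 62.4 CPM in 3D (log2 fold change 0.66 ± 0.12, adjusted p = 1.07e-04). These subunits of polymerase delta thus rose while POLD3 fell (-0.35), and their GC contents were 59.2%, 64.9% and 45%. Trend-removed values were 0.20 for POLD2 (adjusted p = 0.0129), 0.099 for POLD1 and 0.14 for POLD3, of which only POLD2 passed. PRIM2 (-0.41) and POLA1 (-0.28) fell, but turned to 0.26 and 0.48 trend-removed. POLA2 was at 31.9, 34.9 and 29.1 CPM in 2D and 25, 30.6 and 28.2 CPM in 3D and POLE at 68.8, 70.2 and 63.5 CPM in 2D and 56.3, 59.9 and 60.1 CPM in 3D, and neither passed (adjusted p = 0.144 and 0.206). Trend-removed, both were called lower (-0.31 and -0.28).

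The single-strand binding complex RPA protects the unwound DNA, and 0 of its 3 subunits passed in A549. RPA1 was at 139.9, 130.0 and 132 CPM in 2D and 136, 104 and 114 CPM in 3D (log2 fold change -0.18, adjusted p = 0.087). RPA2 was at 47.9, 48.3 and 48.6 CPM in 2D and 40.4, 38.5 and 48.6 CPM in 3D (-0.16, adjusted p = 0.118). RPA3 was at 52.9, 51.3 and 47.6 CPM in 2D and 51.3, 71.3 and 51.4 CPM in 3D (0.17, adjusted p = 0.201). The cultures overlapped for each. Leaving out 1 library ended this for RPA1 (-0.30 without A549 3D replicate 1, adjusted p = 0.00199) and for RPA2 (-0.29 without A549 3D replicate 3, adjusted p = 0.00452), and RPA2 was also called lower with the trends removed (-0.25, adjusted p = 0.00513). Nucleases and ligase fell: EXO1, an exonuclease, was at 55.4, 57.6 and 56.8 CPM in 2D and 21.3, 24 and 29 CPM in 3D (log2 fold change -1.16 ± 0.10, adjusted p = 7.08e-08), and FEN1, the flap endonuclease, at 163, 161 and 158 CPM in 2D and 68.4, 71.1 and 94 CPM in 3D (log2 fold change -1.03 ± 0.10, adjusted p = 3.83e-07). LIG1, the ligase that seals the fragments, fell with a log2 fold change of -0.63 ± 0.11.

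In MDA-MB-231 EXO1 was the 1 member of this role that fell, from 82.7, 78.2 and 81.2 CPM to 47.3, 45.9 and 42.1 CPM (log2 fold change -0.84 ± 0.092, adjusted p = 9.13e-07), and it did not pass trend-removed (-0.21, adjusted p = 0.0568). RPA3, the smallest subunit, rose, from 19.2, 21.1 and 23.6 CPM to 28.7, 31.7 and 29.8 CPM (log2 fold change 0.50 ± 0.12, adjusted p = 0.00156), and stood at 0.54 trend-removed. LIG1 rose from 65.7, 63.9 and 60.3 CPM to 78.8, 75.4 and 82.8 CPM (log2 fold change 0.32 ± 0.11, adjusted p = 0.0166) but had a trend-removed value of -0.059, a value of -0.017 on log2(TPM + 1), and adjusted p = 0.0672 without replicate 3 of MDA-MB-231 2D or of MDA-MB-231 3D. FEN1 was at 195, 183 and 183 CPM in 2D and 189, 167 and 182 CPM in 3D (adjusted p = 0.607). RPA1 was at 262, 244 and 267 CPM in 2D and 249, 240.2 and 235 CPM in 3D (adjusted p = 0.355) and RPA2 at 117, 107 and 116 CPM in 2D and 128, 129 and 125 CPM in 3D (adjusted p = 0.0711). None of these 3 passed, and only the libraries of RPA2 were separated by culture. Trend-removed, FEN1 was called lower (-0.42) and RPA1 higher (0.23), and RPA2 did not pass (-0.066).

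All 4 genes of nucleotide supply fell in A549 (median -0.58). RRM2, the small subunit of ribonucleotide reductase whose level limits the enzyme in S phase, was at 233, 229.8 and 219 CPM in 2D and 127, 109.8 and 143 CPM in 3D (log2 fold change -0.84 ± 0.090, adjusted p = 7.80e-07), and RRM1, the large subunit, at 249, 257 and 242 CPM in 2D and 156, 165 and 202 CPM in 3D (log2 fold change -0.51 ± 0.090, adjusted p = 1.31e-04). TK1, thymidine kinase of the salvage route, was at 162, 156 and 164 CPM in 2D and 115, 74.6 and 113 CPM in 3D (log2 fold change -0.65 ± 0.12, adjusted p = 2.39e-04). TYMS, thymidylate synthase, was the 1 called member whose cultures overlapped, at 50.4, 46.7 and 46.9 CPM in 2D and 49.8, 29.9 and 32.1 CPM in 3D (log2 fold change -0.37 ± 0.14, adjusted p = 0.0252), and its call was lost without A549 2D replicate 1 or A549 3D replicate 3 (adjusted p = 0.0733 and 0.157) and with the 6 A549 libraries fitted alone (adjusted p = 0.106).

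TK1 had the largest rise of the 53 genes in MDA-MB-231 and the only one of at least 2-fold. It was at 69.9, 70.2 and 58.8 CPM in 2D and 151, 152 and 157 CPM in 3D (log2 fold change 1.21 ± 0.12, adjusted p = 4.33e-07), a 2.31-fold difference, and every 3D library lay above every 2D library. Its transcripts have a GC content of 61.6%, and the trend-removed value was 0.33 (adjusted p = 5.78e-04), still a rise. RRM2 fell, from 586, 543 and 612 CPM to 373, 349.8 and 346 CPM (log2 fold change -0.70 ± 0.087, adjusted p = 3.42e-06), and TYMS fell from 323, 301 and 328 CPM to 240.0, 248 and 241 CPM (log2 fold change -0.38 ± 0.12, adjusted p = 0.0105). Trend-removed, RRM2 was at -0.16 and did not pass (adjusted p = 0.167), while TYMS was at -0.71. RRM1 did not pass, at 369.7, 353 and 372 CPM in 2D and 336, 307 and 313 CPM in 3D (log2 fold change -0.19, adjusted p = 0.0619), although its libraries did not overlap, and was called higher trend-removed (0.29).

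Genes that copy chromatin marks and histones with the DNA fell in A549, 5 of 5 (median -0.96). UHRF1, which recognises hemimethylated DNA behind the fork, had the largest fall of the 53 genes: it was at 126, 129 and 128 CPM in 2D and 25.7, 18 and 37.2 CPM in 3D (log2 fold change -2.16 ± 0.16, adjusted p = 1.39e-08), 4.46-fold. CHAF1A, the large subunit of the histone chaperone CAF-1, was at 56.6, 56.4 and 56.2 CPM in 2D and 16.5, 9.77 and 21.5 CPM in 3D (log2 fold change -1.71 ± 0.16, adjusted p = 1.35e-07). CHAF1B, its partner, fell with a log2 fold change of -0.96, SLBP, which binds the stem-loop of histone mRNA, with -0.72, and DNMT1, the maintenance methyltransferase that UHRF1 brings to DNA, with -0.46. In MDA-MB-231 SLBP alone passed: it was at 113, 112 and 120.0 CPM in 2D and 88.2, 89.4 and 84.2 CPM in 3D (log2 fold change -0.40 ± 0.074, adjusted p = 1.75e-04, -0.59 trend-removed). UHRF1 was at 97.8, 81.1 and 85 CPM in 2D and 75.3, 76.5 and 77.2 CPM in 3D (adjusted p = 0.232), and CHAF1A was at 46.8, 43.6 and 41.2 CPM in 2D and 38, 38.7 and 41.6 CPM in 3D (adjusted p = 0.363). CHAF1B was at 48, 48.6 and 43.5 CPM in 2D and 43.6, 48.2 and 45.3 CPM in 3D (adjusted p = 0.786) and DNMT1 at 419, 430.2 and 382 CPM in 2D and 434, 468 and 488 CPM in 3D (adjusted p = 0.165). Trend-removed, UHRF1 and CHAF1A were both at -0.47 and called lower (adjusted p = 0.00202 and 6.73e-04), which they were not from scaled counts, and CHAF1B (-0.096) and DNMT1 (0.13) did not pass.

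The last role holds 2 E2F transcription factors and 2 proteins of the fork checkpoint. CLSPN, which encodes claspin, the adaptor that passes the stress signal from the fork to CHK1, fell in both lines. It was at 87.7, 92 and 88.6 CPM in 2D and 20.4, 14.8 and 24.1 CPM in 3D in A549 (log2 fold change -2.11 ± 0.11, adjusted p = 3.66e-10) and at 168, 154 and 160.1 CPM in 2D and 82.9, 83.6 and 80.7 CPM in 3D in MDA-MB-231 (log2 fold change -0.96 ± 0.10, adjusted p = 5.68e-07), falls of 4.32-fold and 1.95-fold, with a trend-removed value of -0.28 in MDA-MB-231 (adjusted p = 0.0278). TIMELESS, its partner at the fork, was at 147, 145 and 149 CPM in 2D and 60.8, 49.4 and 68 CPM in 3D in A549 (log2 fold change -1.29 ± 0.099, adjusted p = 1.82e-08) and did not pass in MDA-MB-231, at 68.1, 59.7 and 64.5 CPM in 2D and 56.8, 62.2 and 63.3 CPM in 3D (adjusted p = 0.509, 0.082 trend-removed).

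E2F1, the activator that drives many of the genes above, went in opposite directions. It fell in A549, at 50.7, 52.6 and 53.9 CPM in 2D and 33.7, 26.2 and 34.8 CPM in 3D (log2 fold change -0.70 ± 0.094, adjusted p = 8.58e-06), and rose in MDA-MB-231, at 53.4, 56.1 and 50.2 CPM in 2D and 86.6, 83.7 and 83 CPM in 3D (log2 fold change 0.67 ± 0.087, adjusted p = 5.96e-06). No library overlapped between cultures in either line, but with a GC content of 62.5% its trend-removed value in MDA-MB-231 was 0.039 (adjusted p = 0.582). E2F2, a related activator, passed in neither line. It was at 14.9, 13.7 and 12.3 CPM in 2D and 16.3, 9.18 and 15.8 CPM in 3D in A549 (adjusted p = 0.673) and at 7.85, 7.05 and 7.38 CPM in 2D and 6.13, 7.86 and 7.61 CPM in 3D in MDA-MB-231 (adjusted p = 0.919, -0.15 trend-removed).

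**Figure D3:**
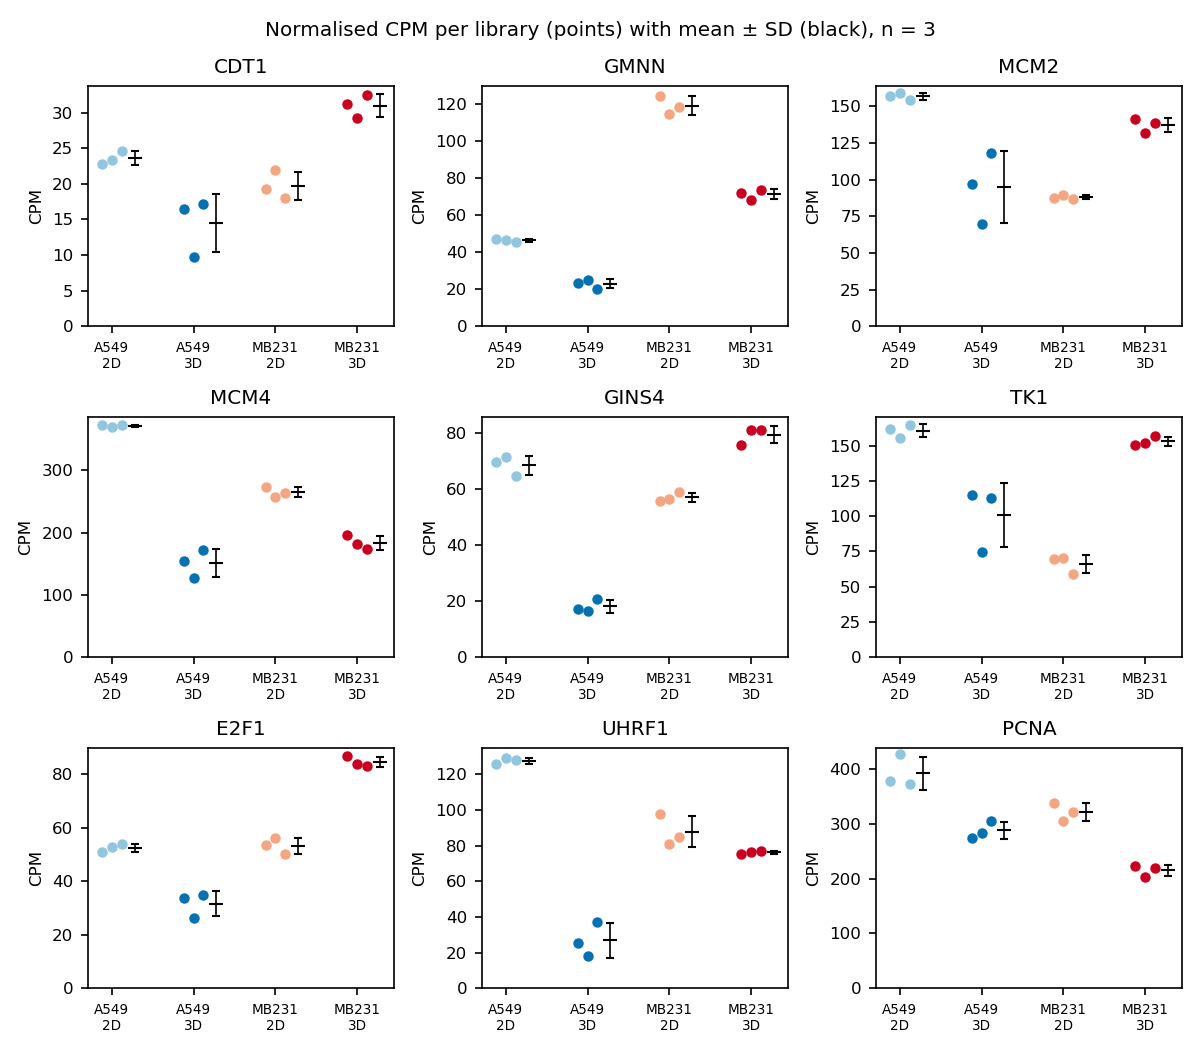
CPM (vertical axis, from 0) of 9 genes in the 3 libraries of each group (coloured points), with mean ± SD (n = 3) in black. GINS4, TK1, E2F1, CDT1 and MCM2 are lower in 3D in A549 and higher in 3D in MDA-MB-231, while GMNN, MCM4 and PCNA are lower in 3D in both lines.

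Over both lines, 24 members were lower in both, against 16.1% of all genes. A further 14 were lower in A549 and did not pass in MDA-MB-231, against 8.15% of all genes. The remaining falls of A549 were 10 members lower in A549 and higher in MDA-MB-231 (CDT1, MCM2, MCM5, MCM7, GINS4, RFC2, POLD1, LIG1, TK1 and E2F1). Over all genes this pattern held for 7.21%. Of the 4820 genes lower in A549, 1104 were higher in MDA-MB-231, a share similar to the 10 of 48 members. POLD2 and RPA3 rose in MDA-MB-231 alone by call (10.9% of all genes), and RPA1, RPA2 and E2F2 passed in neither (12.4% of all genes). The difference between the lines was tested as an interaction, the 3D change of A549 minus that of MDA-MB-231. It was below 0 for 38 members, above 0 for 1 and not passed for 14, against 26.7% and 29.3% of all genes, with a median of -0.64 against 0.07. With the length and GC trends removed it was below 0 for 40 members, 36 of them the same, and above 0 for 0, against 29.2% and 25.4%. For the 62 other pathway genes described below, the difference was below 0 for 21 and above 0 for 20 (median -0.07). The 30 further replication genes among them had 11 and 10 (median -0.07). Trend-removed, these 30 had 16 below and 2 above 0. The 15 E2F and pocket-protein genes then had 7 and 3, the 9 chromatin genes 4 and 1, and the 8 nucleotide genes 3 and 2. Over 24 alternatives 31 of the 38 members were called in all, and the share of all genes for this is not given here.

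GINS4 had the smallest p of the difference, with a value of -2.35 ± 0.13 (adjusted p = 1.04e-09) that was -2.48 with the trends removed. TK1 followed with -1.86 ± 0.17 (adjusted p = 3.50e-07, -1.20 trend-removed), E2F1 with -1.37 ± 0.13 (-0.80 trend-removed) and MCM7 with -1.49 ± 0.15 (-1.06). POLD1 differed by -1.59 ± 0.17 (-1.06) and UHRF1 by -1.95 ± 0.22 (-1.61). All 6 kept their sign and passed with the trends removed, with values nearer to 0 for all but GINS4. Of the further members with opposite calls, MCM2 differed by -1.34, MCM5 by -1.23, CDT1 by -1.28, LIG1 by -0.95 and RFC2 by -0.64, and trend-removed values were -0.95, -0.79, -0.68, -0.52 and -0.27. MCM8 was the 1 member whose difference passed above 0, at 0.30 ± 0.12 (adjusted p = 0.045). It had a trend-removed value of -0.15 that did not pass (adjusted p = 0.383). Its call was lost without any 1 of 9 libraries, all but A549 3D replicates 1 and 2 and MDA-MB-231 2D replicate 2 (adjusted p = 0.0748 to 0.132).

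**Figure D4:**
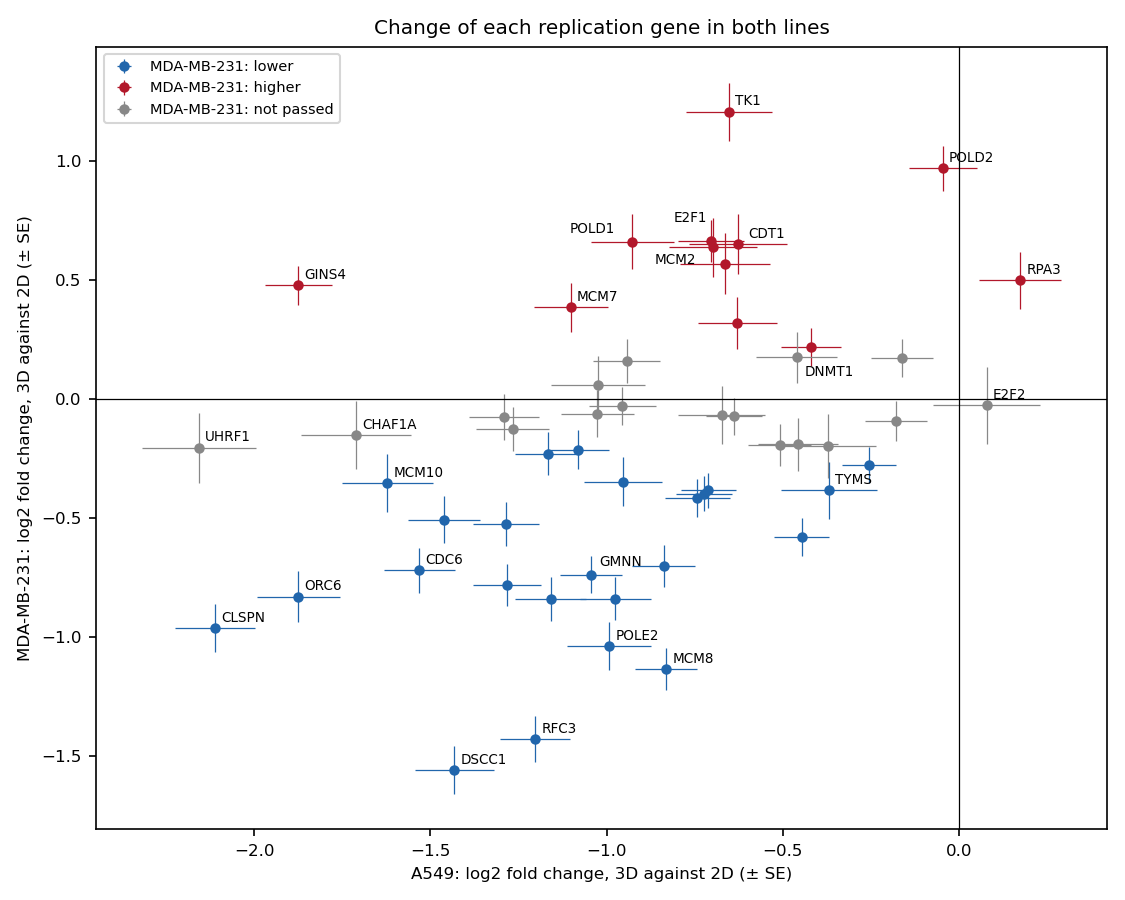
Log2 fold change of each of the 53 genes in A549 (horizontal axis) against that in MDA-MB-231 (vertical axis), with bars of ± 1 SE and colours by the call in MDA-MB-231. Nearly all points lie left of 0, while the vertical spread from DSCC1 at -1.56 to TK1 at 1.21 crosses 0.

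The lines were then compared within each culture, which shares libraries with the comparisons above. In 2D 25 members were higher in A549 and 18 lower, against 42.8% and 38.8% of all genes, with a median of 0.25 against 0.07. On log2(TPM + 1) the median of all genes moved to -0.56, and 35 members were lower and 5 higher, with a member median of -0.63. The 4 members with the smallest p among those higher in A549 were GINS2 (log2 fold change 1.29 ± 0.088, adjusted p = 1.30e-09), TIMELESS (1.20 ± 0.095), POLD1 (1.35 ± 0.12) and RPA3 (1.25 ± 0.12). Lower in A549 were TYMS (log2 fold change -2.72 ± 0.13, adjusted p = 1.82e-11), GMNN (-1.36 ± 0.079), DNMT1 (-1.93 ± 0.11) and RRM2 (-1.35 ± 0.089). TYMS was at 48 CPM in A549 and 317 CPM in MDA-MB-231, a 6.61-fold difference.

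In 3D 38 members were lower in A549 and 7 higher, against 39.2% and 43.9% of all genes, with a median of -0.82 against 0.10. GINS4 (log2 fold change -2.09 ± 0.095, adjusted p = 9.24e-12), DNMT1 (-2.56 ± 0.12), TYMS (-2.71 ± 0.14) and GMNN (-1.67 ± 0.088) were lower with the smallest p. RPA3 (log2 fold change 0.92 ± 0.12, adjusted p = 2.79e-06), MCM8 (0.57 ± 0.090), E2F2 (0.98 ± 0.16) and PCNA (0.42 ± 0.079) were higher, but all 4 turned below 0 on log2(TPM + 1), where the median of all genes was -0.64 and 51 members were lower. GINS4 had 18.1 ± 2.46 CPM in A549 and 79.3 ± 3.04 CPM in MDA-MB-231 here, against 68.5 ± 3.37 and 57 ± 1.71 CPM in flat culture (SD, n = 3).

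Partner genes were also compared within a library as the log2 ratio of their TPM, which is scaled by length so that levels of 2 genes can be set side by side. For 14 comparisons (7 ratios in 2 lines) the smallest p that an exact permutation test of 3 against 3 libraries allows is 0.1, which is 0.156 after Benjamini-Hochberg adjustment, so that none can pass. The ratio of GMNN to CDT1 in MDA-MB-231 was 4.06, 3.75 and 4.08 for flat cultures and 2.54, 2.56 and 2.52 for Matrigel cultures, a change of -1.42 with no overlap (two-sided exact p = 0.1). In A549 it was 2.34, 2.31 and 2.18 in 2D and 1.80, 2.62 and 1.51 in 3D, and the cultures overlapped (exact p = 0.4). The ratio of POLE2 to POLE in MDA-MB-231 was 2.11, 2.07 and 2.23 for flat cultures and 1.60, 1.07 and 1.16 for Matrigel cultures, a change of -0.86, and changed by -0.60 in A549 with overlap (exact p = 0.2). The GC contents of these pairs differ (41.7% and 64.9%, 41.7% and 56.4%), and the part of that in the ratios was not tested.

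PRIM1 to PRIM2, catalytic to large subunit of primase, was 1.51, 1.39 and 1.44 in A549 2D and 0.91, 0.68 and 0.94 in 3D, a change of -0.60, and it changed by -0.35 in MDA-MB-231. RRM2 to RRM1 changed by -0.33 in A549 and -0.51 in MDA-MB-231. Neither ratio overlapped between cultures in either line, and within each pair the GC contents are close (40.1% and 38.3%, 42.8% and 43.6%). MCM8 to the mean of MCM2 to MCM7 in MDA-MB-231 was -1.31, -1.35 and -1.22 for flat cultures and -2.62, -2.63 and -2.62 for Matrigel cultures. This was a change of -1.33, and in A549 the ratio changed by 0.12 with overlap. The GC content is 41.9% for MCM8 and 43.1% (MCM6) to 58.1% (MCM2) for the ring genes. The part of that in the ratio was not tested. POLA2 to POLA1 changed by -0.25 in A549 without overlap and by 0.071 in MDA-MB-231 with overlap, and RFC1 to the mean of RFC2 to RFC5 by 0.20 without and 0.070 with overlap.

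**Figure D5:**
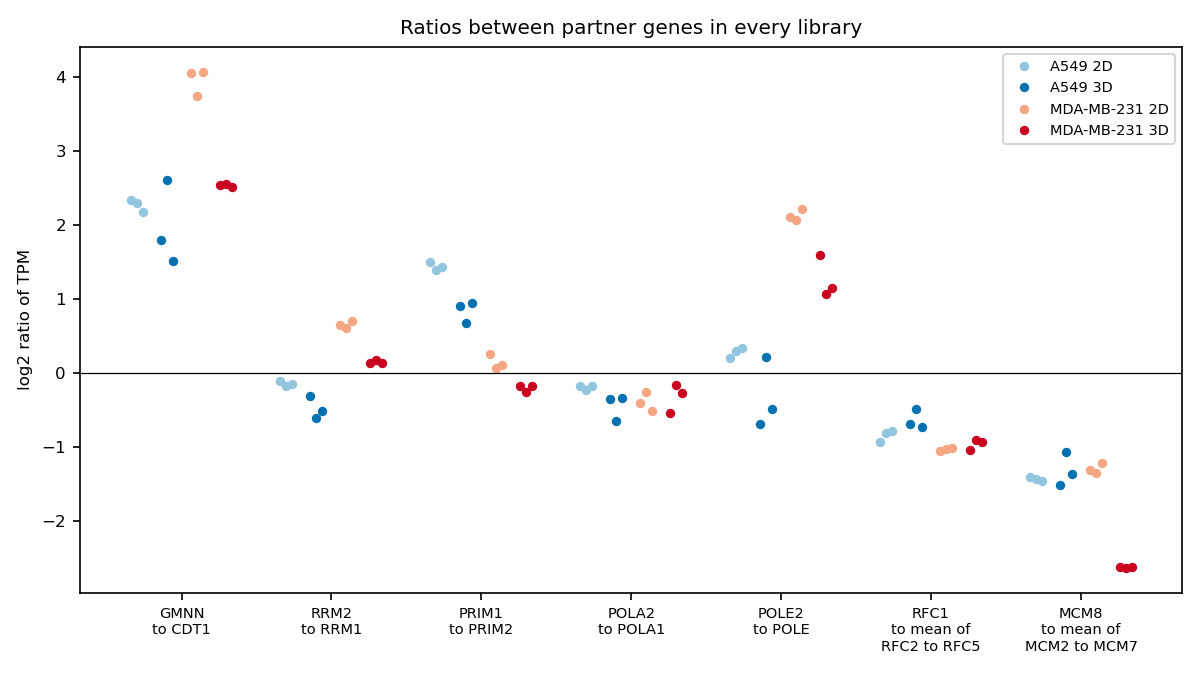
Log2 ratio of TPM (vertical axis) for 7 pairs or groups of partner genes (horizontal axis), 1 point per library, coloured by group. In MDA-MB-231 the 3D points of GMNN to CDT1, near 2.54, lie below the 2D points, near 3.96, and those of MCM8 to MCM2 to MCM7 lie near -2.62 against -1.29.

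The 6 genes of the helicase ring, which is built from 1 copy of each subunit, were not at equal levels. By mean TPM, MCM7 was highest in A549 2D (193 ± 2.69) and MCM6 lowest (59 ± 2.08), a 3.27-fold range, and in A549 3D MCM7 was still highest (61.3 ± 15.3) and MCM2 lowest (25.5 ± 7.93), a 2.4-fold range (SD, n = 3). In MDA-MB-231 MCM3 was highest in 2D (267 ± 2.45) and 3D (223 ± 4.32), while the lowest was MCM2 in 2D (59.4 ± 0.881) and MCM6 in 3D (48.6 ± 0.788), for ranges of 4.5-fold and 4.59-fold. Several neighbours in the order did not differ beyond their spread: MCM2 (61 ± 0.868) and MCM6 in A549 2D, MCM5 (68.2 ± 3.65) and MCM6 (68.1 ± 2.5) in MDA-MB-231 2D, and MCM2 (69.3 ± 2.96) and MCM4 (66.4 ± 5.21) in MDA-MB-231 3D. In A549 3D the 5 genes below MCM7 lay between 25.5 and 34.7 TPM, with SDs that made none of them distinct from its neighbour.

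The 62 other genes of the same pathways, from 4 lists, were looked at beside the members. Of 30 further replication genes, 22 fell and 1 rose in A549 (median -0.63), and 22 fell and 6 rose in MDA-MB-231 (median -0.74). Trend-removed, the counts in MDA-MB-231 were 15 and 7. For these and the following lists the share of all genes was 31.5% lower and 34.1% higher in A549, 34.2% and 33.4% in MDA-MB-231, and 25% and 32.1% there trend-removed. TOP2A, the topoisomerase that untangles replicated DNA, fell in A549 (log2 fold change -1.42 ± 0.074, adjusted p = 2.45e-10), as did ATAD5, which unloads PCNA (-1.43 ± 0.10), and FBXO5, an inhibitor of the anaphase-promoting complex (-1.30 ± 0.093). In MDA-MB-231 ATAD5 was at 47, 47.1 and 48.7 CPM in 2D and 14.2, 11.7 and 10.6 CPM in 3D (log2 fold change -1.98 ± 0.098, adjusted p = 3.83e-10, -0.81 trend-removed). CDC7, the kinase that fires origins, fell with -1.5 ± 0.082 (-0.61) and DNA2, a nuclease-helicase, with -1.45 ± 0.088 (-0.47). The GC contents of these 3 are 37.4%, 38.3% and 39%. Their falls were called in A549 as well, at -1.43, -0.80 and -0.83.

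E2F and pocket-protein genes, which regulate the members, fell in both lines, 11 of 15 in each, with 2 rises in A549 (median -0.65) and 1 in MDA-MB-231 (median -0.69), where trend-removed counts were 8 lower and 5 higher. LIN9, a subunit of the complex that regulates cell-cycle genes with pocket proteins, was at 32.2, 30.1 and 30.0 CPM in 2D and 12.9, 13.1 and 10.7 CPM in 3D in A549 (log2 fold change -1.37 ± 0.11, adjusted p = 2.52e-08) and at 36.3, 31.9 and 36.2 CPM in 2D and 11.2, 9.80 and 9.20 CPM in 3D in MDA-MB-231 (log2 fold change -1.80 ± 0.10, adjusted p = 1.36e-09, -0.85 trend-removed). E2F7, an atypical repressor, fell in A549 (-1.21 ± 0.10), as did RBL1, the pocket protein p107 (-0.96 ± 0.082). RBL2, the pocket protein p130 that is known from resting cells, fell in MDA-MB-231 (-1.18 ± 0.088, -0.47 trend-removed) and rose in A549 (0.37 ± 0.084). E2F8, the other atypical repressor, fell in MDA-MB-231 with -1.29 ± 0.098 (-0.92).

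Of 9 further chromatin-copying genes, 7 fell and 0 rose in A549, and 5 fell and 2 rose in MDA-MB-231, where trend-removed counts were 2 and 2. ESCO2, the acetyltransferase that sets cohesion in S phase, was at 76.3, 77.1 and 70.1 CPM in 2D and 29.2, 29.1 and 23.4 CPM in 3D in A549 (log2 fold change -1.48 ± 0.12, adjusted p = 4.70e-08) and at 36.3, 32.9 and 38.2 CPM in 2D and 10.9, 10.4 and 7.40 CPM in 3D in MDA-MB-231 (log2 fold change -1.91 ± 0.13, adjusted p = 8.00e-09, -1.02 trend-removed). NASP, a histone chaperone, fell in A549 (-1.21 ± 0.095), as did SSRP1 of the FACT complex (-0.97 ± 0.084). ASF1A (-1.14 ± 0.10) and RBBP4 (-0.58 ± 0.073) fell in MDA-MB-231 but did not pass trend-removed (-0.14 and 0.11). Of 8 further nucleotide genes, 4 fell in each line, with 3 rises in A549 and 2 in MDA-MB-231. Trend-removed, 2 fell and 4 rose in MDA-MB-231, and the median was 0.12. UNG, which removes uracil from DNA, fell in A549 with -0.82 ± 0.10. DCK, the deoxycytidine kinase, fell in A549 (-1.21 ± 0.10) and in MDA-MB-231 (-1.59 ± 0.090, -0.86 trend-removed). RRM2B, the p53-induced subunit of ribonucleotide reductase, fell in MDA-MB-231 (-0.76) and was called higher trend-removed (0.17, adjusted p = 0.0402), and TK2, the mitochondrial thymidine kinase, rose (0.62 ± 0.096, 0.78 trend-removed).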

How the data were processed

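RNA was ribosome-depleted total RNA from 12 libraries, prepared with a stranded kit per the labels' protocols. The authors deposited 1 gene table per library with expected counts, TPM and transcript lengths (length and effective length, in bases), made with RSEM on hg19 per the submitters' processing notes. Not given in the sources used here are the aligner, tool versions and strand setting. RSEM splits reads shared by similar genes, so close copies and overlapping genes carry that uncertainty.

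Expected counts were rounded and tested in edgeR 4.0.16 (R 4.3.3): TMM scaling, filterByExpr, 1 mean per group over all 12 libraries, quasi-likelihood tests with Benjamini-Hochberg adjustment over 15304 genes and a threshold of 0.05. Every adjusted p in the text is from this model or the alternative named. The model shares 1 spread per gene over all groups, although A549 3D scattered most. Its p-values and SEs can thus be too small for A549 3D and too large for MDA-MB-231. With the 6 libraries of a line fitted alone, 46 members were lower in A549, and 27 were lower and 15 higher in MDA-MB-231. SE is an approximate one of the log2 fold change, worked back from that value and the F statistic of its test. Alternatives were DESeq2 1.42.0, upper-quartile and RLE factors, other filters, limma 3.58.1 on log2(TPM + 1) and log2(TPM + 0.1), voom with group weights, length and GC offsets (loess span 0.4, GC from GENCODE release 29 for 98.4% of genes), removal of small RNA genes, a replicate block, single-library omission, and, where 2 groups are compared, their 6 libraries alone.

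The members and lists were chosen with earlier results of these data known. Values per library are given, in each line, for the 2 members of each role with the smallest p, those that moved against the majority and those that did not pass. The difference names the 6 with the smallest p and those called in opposite directions, the lines in one culture 4 per direction, and each pathway list 3 per line, of which 1 gene is not reported here. On simulated counts of 14896 genes for A549, 56 were changed by 0.5 on the log2 scale, 66 by 1 and 70 by 2. The test recovered 39.3% of those changed by 0.5 and 74.2% of those changed by 1 (7.28% of calls false). In MDA-MB-231 it recovered 49.1% and 74.2% (14884 genes, 4.64% false), and for the difference 8.62% and 63.1% (14871 genes, 4.46% false). Far more genes were called in the data, 31.5% lower and 34.1% higher in A549. How these rates carry over to data with that many changed genes, or to the wider spread of A549 3D, was not tested. Total counts of 5609327 to 28171901 limit precision.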

Additional observations from a re-analysis of the deposited data

Results flagged for a closer look

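Of the 38 members that passed below 0 and the 1 that passed above 0 in the interaction test of edgeR, 12 are given here: the 6 with the smallest p, the others called in opposite directions in the lines, and MCM8. Their change in 3D differed between the lines, given as the log2 fold change of A549 minus that of MDA-MB-231 with its SE. GINS4, of the GINS complex, stood at -2.35 ± 0.13 (adjusted p = 1.04e-09) and TK1, thymidine kinase, at -1.86 ± 0.17 (adjusted p = 3.50e-07). The helicase subunits MCM7, MCM2 and MCM5 stood at -1.49 ± 0.15 (adjusted p = 6.03e-07), -1.34 ± 0.18 (adjusted p = 1.18e-05) and -1.23 ± 0.18 (adjusted p = 3.06e-05), and their loader CDT1 at -1.28 ± 0.19 (adjusted p = 3.33e-05). E2F1 stood at -1.37 ± 0.13 (adjusted p = 3.71e-07), POLD1 at -1.59 ± 0.17 (adjusted p = 1.07e-06) and UHRF1 at -1.95 ± 0.22 (adjusted p = 2.10e-06). LIG1 stood at -0.95 ± 0.16 (adjusted p = 1.00e-04) and RFC2 at -0.64 ± 0.12 (adjusted p = 2.26e-04). MCM8 was the 1 of the 12 above 0, at 0.30 ± 0.12 (adjusted p = 0.045). Its call was lost in 14 of 24 alternatives and its sign turned in 1 more. All were lower in 3D in A549, and in MDA-MB-231 all but UHRF1, which did not pass, and MCM8, which fell, were called higher. Of these 10 rises, GINS4, MCM2 and TK1 also passed as rises with the length and GC trends removed, RFC2 was called lower (-0.28), and CDT1 (-0.065) and LIG1 (-0.059) were below 0 without passing. On log2(TPM + 1) TK1 was the 1 of the 10 called higher. With the length and GC trends removed, 11 of the 12 differences kept their sign and passed, and MCM8 did not.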

How the results depend on the processing

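Over the 25 alternatives, 12 of which leave out 1 library, the number of members lower in A549 ran from 46 to 53, against 48. In MDA-MB-231 it ran from 21 to 36, against 24. A similar count can hold other genes: with length and GC removed, 15 of the 24 falls in MDA-MB-231 were shared. Leaving out 1 library at a time gave 46 to 49 lower in A549 (median -0.96 to -0.80), 21 to 26 lower and 10 to 15 higher in MDA-MB-231 (median -0.22 to -0.17), 34 to 39 below and 0 to 1 above 0 for the difference (median -0.82 to -0.57), and between lines 18 to 20 lower and 23 to 28 higher in 2D (median 0.20 to 0.25) and 38 to 40 lower and 7 to 9 higher in 3D (median -0.99 to -0.69). As in the main fit, the spread of each gene was shared by all groups, also where a group was left with 2 libraries. On log2(TPM + 1) and log2(TPM + 0.1) the member median was -1.41 and -1.52 in A549 and -0.58 and -0.61 in MDA-MB-231, where 2 members were higher on each scale, and -0.81 for the difference with 0.1 added. The lines in 2D gave 35 lower and 5 higher on each scale, with medians that turned to -0.63 and -0.64, and the lines in 3D gave 0 higher, with medians of -1.67 and -1.79. The shift of all genes was -0.38 and -0.50 in A549, -0.25 and -0.36 in MDA-MB-231, -0.56 and -0.70 between lines in 2D and -0.64 and -0.83 in 3D. The median in MDA-MB-231 was -0.13 with the length trend removed and -0.15 with length and GC, and between lines in 2D 0.083 and 0.18, or 0.21 without small RNA genes. These last 2 alternatives, length with GC and small RNA genes, were chosen after seeing the data. The 1 member above 0 in the difference, MCM8, was lost with no filter, on both TPM scales, with length and GC removed and under the replicate block (count 0 in each).

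Members with values of their own in the report turned sign as follows, and the cause was not tested. On log2(TPM + 1), then log2(TPM + 0.1), these were, in A549, RPA3 -0.38 and E2F2 -0.41, then RPA3 -0.39 and E2F2 -0.55. In MDA-MB-231 they were ORC1 -0.35, MCM3 -0.26, MCM7 -0.031, RFC2 -0.21, RPA2 -0.24, LIG1 -0.017 and DNMT1 -0.23, then ORC1 -0.36, MCM3 -0.26, MCM7 -0.031, RFC2 -0.21, RPA2 -0.24, LIG1 -0.017 and DNMT1 -0.24. Between lines, calls turned from higher to lower on both TPM scales for MCM4, MCM8, GINS4, PCNA, RFC3, POLA1 and POLA2 in 2D and for MCM8, GINS2, PCNA, RFC3 and POLA1 in 3D. Values in 3D were RPA3 -0.015, MCM8 -0.36, E2F2 -0.0067 and PCNA -0.55, then RPA3 -0.015, MCM8 -0.38, E2F2 -0.024 and PCNA -0.55. With the length trend removed, MDA-MB-231 gave MCM6 0.080, RFC2 -0.065, POLE 0.070, RPA1 0.12, RPA2 -0.11, E2F2 0.24 and TIMELESS 0.19. With length and GC removed it gave CDT1 -0.065, MCM6 0.54, GINS1 0.15, MCM10 0.17, RFC1 0.44, RFC2 -0.28, POLA1 0.48, PRIM2 0.26, POLD3 0.14, RPA1 0.23, RPA2 -0.066, LIG1 -0.059, RRM1 0.29 and TIMELESS 0.082, and MCM8 had -0.15 for the difference. Leaving out 1 library gave -0.039 to 0.22 for E2F2 and -0.14 to 0.034 for POLD2 in A549, and -0.091 to 0.063 for E2F2, -0.18 to 0.023 for GINS3 and -0.079 to 0.0051 for CHAF1B in MDA-MB-231. In MDA-MB-231 RRM1, MCM3, POLE, RPA2, DNMT1 and UHRF1, which did not pass, passed without 1 of the A549 3D libraries, whose spread enters the fit, and with the 6 MDA-MB-231 libraries fitted alone. With counts per full length, log2 ratios moved to 2.14 (A549 2D) and 2.40 for GMNN to CDT1 (MDA-MB-231 3D), 1.38 and -0.28 for PRIM1 to PRIM2 in the same groups, 0.17 and 2.00 for POLE2 to POLE in the 2D groups, -0.74, -0.90 and -0.85 for RFC1 to RFC2 to RFC5 in A549 2D, MDA-MB-231 2D and MDA-MB-231 3D, and -2.61 for MCM8 in MDA-MB-231 3D.

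No pairing by replicate number was seen: over 18 same-numbered pairs the correlation of deviations from the group means ran from -0.136 to 0.0972. Pairs with different numbers ran from -0.128 to 0.158. With 3 libraries per group, these values cannot show that pairing is absent. With the replicate block, A549 kept 48 lower, MDA-MB-231 had 22 lower and 12 higher (GINS2 and RFC5 lost), the difference had 35 below and 0 above 0 (GMNN, MCM8, PRIM2 and RRM1 lost) and the lines were unchanged. Depth was lowest, 5609327 counts, in A549 3D replicate 2, and the spread of A549 3D limits what small changes in that line can be called.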

Other observations

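The 53 genes took 0.596% of all counts of flat A549 and 0.270% in Matrigel, and for MDA-MB-231 0.701% and 0.541%. POLD4, the small subunit of polymerase delta and no member, rose in both lines, with log2 fold changes of 0.97 ± 0.093 in A549 and 1.60 ± 0.10 in MDA-MB-231 (edgeR, adjusted p = 2.27e-07 and 4.04e-09). With the length and GC trends removed, the values of POLD4 were 0.80 in A549 and 0.82 in MDA-MB-231, and both passed. Its transcripts have a GC content of 59.8%. POLD4 was chosen for mention after its values were seen.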
